A study of Rattus norvegicus with 3 samples.

Results

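The imprinted and fetal growth genes described here are *Plagl1*, *Nnat*, *Dlk1*, *Mest*, *Peg3*, *H19*, *Grb10* and *Cdkn1c*, together with *Igf2bp3* and *Igf2bp2*. They were chosen by gene symbol, and the choice was made with the differences between these arrays already known, so their ratios are given as a description. Of the 10 genes, 9 were measured, by 14 of the 31042 probe sets on the array (a probe set is a group of short probes for a transcript). No probe set carried *Peg3* as its gene symbol. The cells were tendon stem/progenitor cells (TSPCs) grown out of rat Achilles tendon taken at 1, 7 and 56 days of age, named TSPCs-1d, TSPCs-7d and TSPCs-56d. All 3 cultures were of polyclonal origin, were kept in low glucose DMEM with fetal bovine serum and were taken at passage 2, each from the mixed tendons of 2 or more rats. The study used Sprague-Dawley rats. Sex was not given in the sources used here, and the labels name no genotype or agent. With a single array for each age, differences could not be set against replicates and no test was made.

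An imprinted gene is expressed mainly from the copy inherited from the father or mainly from the copy inherited from the mother. In mouse, many imprinted genes act on growth before and shortly after birth, those expressed from the paternal copy often as promoters of growth and those from the maternal copy often as brakes, and the expression of several declines in growing organs as the animal matures. In mouse, *Plagl1* encodes a zinc finger transcription factor that regulates other imprinted genes. Igf2bp2 and Igf2bp3 are not imprinted. They are RNA-binding proteins, abundant in the fetus, that were named for binding the mRNA of *Igf2*, the fetal insulin-like growth factor.

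The genes that were more than 2-fold lower in TSPCs-56d relative to TSPCs-1d are shown first by their promoters, apart from *Nnat*, which had none matched. Methylation of CpG sites is the mark that sets imprinted genes. *Igf2bp2* and *Igf2bp3* are shown beside the imprinted ones. The sequences are from RefSeq (rat assembly GRCr8) and run 5′ to 3′ over 300 bases, from 250 before to 50 after an annotated start of the gene, with CpG sites in capitals. Methylation was not measured. A gene can have other starts, and the array does not tell which was used.
Plagl1, chr1:9297214-9297513, plus strand: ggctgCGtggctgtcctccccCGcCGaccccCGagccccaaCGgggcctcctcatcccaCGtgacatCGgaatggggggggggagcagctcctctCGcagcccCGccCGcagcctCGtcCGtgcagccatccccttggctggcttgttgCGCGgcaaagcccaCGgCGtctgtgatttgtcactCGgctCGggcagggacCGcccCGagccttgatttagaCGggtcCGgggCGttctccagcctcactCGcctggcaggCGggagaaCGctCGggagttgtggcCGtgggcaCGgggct
Mest, chr4:60321564-60321863, plus strand: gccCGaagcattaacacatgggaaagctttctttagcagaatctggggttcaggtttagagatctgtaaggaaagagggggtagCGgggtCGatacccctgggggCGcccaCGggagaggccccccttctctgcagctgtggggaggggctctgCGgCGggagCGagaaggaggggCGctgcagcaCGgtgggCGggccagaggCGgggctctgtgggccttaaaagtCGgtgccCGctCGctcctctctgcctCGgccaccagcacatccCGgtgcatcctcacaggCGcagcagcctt
Igf2bp3, chr4:79525681-79525980, minus strand: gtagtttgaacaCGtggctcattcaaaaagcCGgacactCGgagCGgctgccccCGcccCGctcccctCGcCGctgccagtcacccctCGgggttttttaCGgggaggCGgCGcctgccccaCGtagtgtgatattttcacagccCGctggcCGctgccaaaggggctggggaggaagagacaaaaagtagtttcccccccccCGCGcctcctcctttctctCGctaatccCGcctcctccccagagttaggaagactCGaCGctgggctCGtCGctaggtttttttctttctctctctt
Igf2bp2, chr11:92378658-92378957, plus strand: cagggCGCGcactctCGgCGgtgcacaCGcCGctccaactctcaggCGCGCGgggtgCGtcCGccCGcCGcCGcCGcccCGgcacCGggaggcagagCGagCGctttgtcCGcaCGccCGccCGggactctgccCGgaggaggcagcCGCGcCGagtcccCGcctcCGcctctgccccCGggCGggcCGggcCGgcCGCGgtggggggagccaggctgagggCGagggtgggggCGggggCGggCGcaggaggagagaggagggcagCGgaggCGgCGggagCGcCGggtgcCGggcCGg
The *Plagl1* promoter held 29 CpG sites, *Mest* 18, *Igf2bp3* 23 and *Igf2bp2* 46, against a median of 7 over 33469 rat promoters of that length. Of all these promoters, 88.5% held fewer than *Plagl1*, 72.5% fewer than *Mest*, 80.5% fewer than *Igf2bp3* and 98.6% fewer than *Igf2bp2*. Promoters of *Peg3* (16 CpG sites), *Dlk1* (45) and *Grb10* (44) were also matched, and *Nnat*, *H19* and *Cdkn1c* were not. Members with many CpG sites stood among those that were lower in TSPCs-56d (*Igf2bp2*) and among those that were within 2-fold (*Dlk1* and *Grb10*). Of these, *Dlk1* was below the median of all signals in each culture, so its ratios say little. The word GGGGCCCC, which reads the same on both strands and resembles the GC-rich sites bound by Plagl1, was in 1 of the 7 matched promoters (*Peg3*) and in 0.858% of all. The word GGGCGG, searched on both strands, was in 6 of the 7 and in 33.1% of all. The 7 promoters held between 61.0% (*Igf2bp3*) and 82.3% (*Igf2bp2*) G and C, against a median of 51.7% over all. How often a word of G and C alone occurs depends on that content. Whether the words were more frequent than the content gives was not tested.

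On the arrays, 5 of the 9 measured genes were more than 2-fold lower in TSPCs-56d relative to TSPCs-1d (*Plagl1*, *Nnat*, *Igf2bp3*, *Mest* and *Igf2bp2*), and 0 were more than 2-fold higher. For comparison, 1.77% of all 14216 genes were that much lower and 2.00% that much higher. The median log2 ratio of the 9 genes was -1.61, and that of all genes was 0.06. Over all 14 probe sets of the members the median was -0.59, and over the 9 genes it was -1.04 with the probe sets of a gene averaged and -0.69 with signals under the median of all signals raised to it. For TSPCs-7d over TSPCs-1d, 1 gene was lower (*Plagl1*) and 0 were higher, beside 1.08% and 1.87% of all genes, and the medians were -0.24 and 0.01. For TSPCs-56d over TSPCs-7d, 4 genes were lower and 0 were higher, beside 2.10% and 1.72% of all genes, with medians of -0.94 and 0.05. This last ratio has the older culture on top, whereas the study set TSPCs-7d over TSPCs-56d. By probe set, 6 of the 14 were lower and 0 higher for TSPCs-56d over TSPCs-1d (1.80% and 1.52% of all probe sets), 1 and 0 for TSPCs-7d over TSPCs-1d (0.989% and 1.36%), and 5 and 0 for TSPCs-56d over TSPCs-7d (1.68% and 1.31%). These shares are printed for scale only, because the genes were chosen on the same ratios. The 3 comparisons share arrays in pairs and are not independent. In RNA of a whole culture, fewer cells of a type and less RNA per cell cannot be told apart. Each gene was counted by its probe set of highest mean signal, and a ratio over 2 or under 0.5 was the cutoff, as in the methods.

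**Figure D1:**
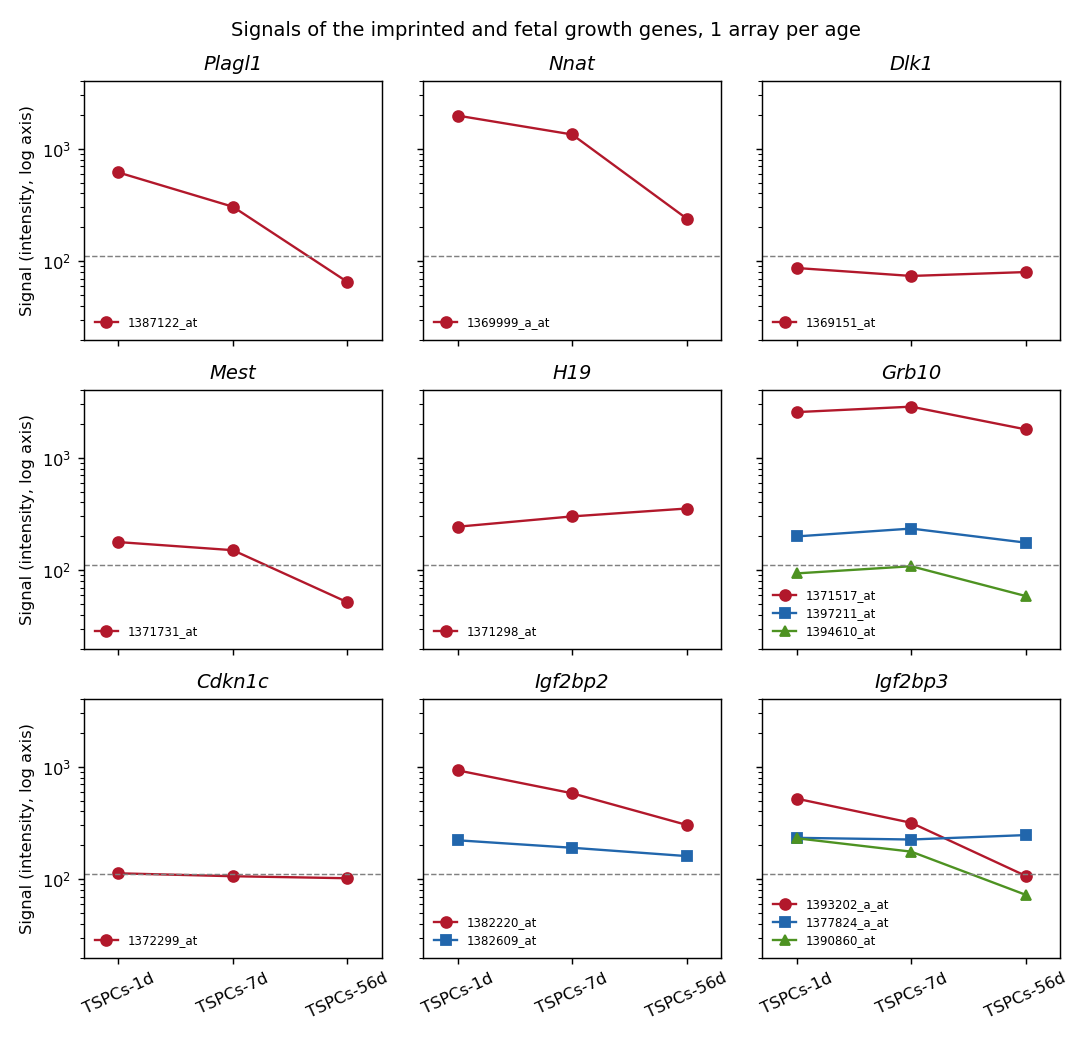
Signal (intensity units, log axis) of each probe set of the 9 measured genes by culture (TSPCs-1d, TSPCs-7d and TSPCs-56d), 1 array per age and 1 line per probe set, with the median of all signals (110.1) dashed. *Plagl1*, *Nnat*, *Mest* and the brightest probe sets of *Igf2bp2* and *Igf2bp3* run downward with age past 2-fold, while *Dlk1*, *Cdkn1c* and *H19* stay within 2-fold.

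Among genes that mouse expresses from the paternal copy, *Plagl1* (also called Zac1) had signals of 615 at 1 day, 305 at 7 days and 65.3 at 56 days. It was high in the newborn culture, intermediate at 7 days and below the median of all signals (110.1) at 56 days. Its signal was 9.42-fold lower in TSPCs-56d relative to TSPCs-1d, and 14 of the 14216 genes had a lower ratio. With signals under the median raised to it, the difference was 5.59-fold. It was 4.67-fold lower in TSPCs-56d relative to TSPCs-7d, or 2.77-fold with that floor. Compared to TSPCs-1d, it was 2.02-fold lower in TSPCs-7d, just past the cutoff.

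*Nnat* encodes neuronatin, a small membrane protein of the endoplasmic reticulum. Its signals were 1970.5 at 1 day, 1339 at 7 days and 239 at 56 days, all above the median. It was 8.23-fold lower in TSPCs-56d relative to TSPCs-1d and 5.59-fold lower than in TSPCs-7d. Only 5 genes had a lower ratio of TSPCs-56d to TSPCs-7d. In the rat annotation *Nnat* lies within *Blcap*, which stayed within 2-fold. The brightest *Blcap* probe set had 895, 723 and 814 at 1, 7 and 56 days, a ratio of 0.91 between TSPCs-56d and TSPCs-1d.

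*Mest* encodes a protein of the hydrolase fold that is abundant in fetal mesenchyme in mouse. It had signals of 178, 150 and 51.8 at 1, 7 and 56 days, close together in the younger cultures and dim at 56 days. It was 3.43-fold lower in TSPCs-56d relative to TSPCs-1d, but only 1.61-fold with dim signals raised to the median, which is under the cutoff. Relative to TSPCs-7d it was 2.91-fold lower, and 1.37-fold with that floor. *Copg2*, the neighbouring gene on the chromosome, had 958, 767 and 1051. *Dlk1*, a membrane protein that holds back the formation of fat cells, was dim in each culture with 86.9, 73.8 and 80.0. All 3 of its signals were below the median, so its ratios (1.18-fold and 1.09-fold lower in TSPCs-7d and TSPCs-56d than in TSPCs-1d) say little about the level of its RNA.

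The genes that mouse expresses from the maternal copy were within 2-fold in each comparison. *H19* is a long non-coding RNA that lies beside *Igf2* and carries the microRNA miR-675. Its signal was 243 at 1 day, 301 at 7 days and 353 at 56 days, the only measured gene whose brightest probe set was higher at both steps. The ratio of TSPCs-56d to TSPCs-1d was 1.45, a log2 ratio of 0.54. As a guide to how far probe sets of a gene differ, 10% of the 1714 genes with 2 bright probe sets had a gap of more than 0.53 between these in this comparison. Both probe sets were read on the same arrays, so the gap does not measure the spread between cultures or arrays. The mature miR-675 sequences, which the array did not measure, are shown since they lie within *H19* in RefSeq (GRCr8), with the seed (bases 2 to 8) in capitals.
rno-miR-675-5p, chr1:207161800-207161821, minus strand: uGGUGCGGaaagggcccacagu
rno-miR-675-3p, chr1:207161766-207161786, minus strand: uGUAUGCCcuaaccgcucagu
*Grb10* encodes an adaptor that binds the insulin and insulin-like growth factor receptors and dampens their signal. Its brightest probe set had 2545, 2844 and 1785 at 1, 7 and 56 days, the next 199.5, 234 and 176, and the faintest 93.5, 108 and 58.8. All 3 were highest in TSPCs-7d and lowest in TSPCs-56d. The largest difference in the brightest was 1.59-fold, between TSPCs-56d and TSPCs-7d. *Cdkn1c* encodes p57, an inhibitor of cyclin-dependent kinases. It had 113, 106 and 102, within 1.11-fold of each other and near the median of all signals.

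**Figure D2:**
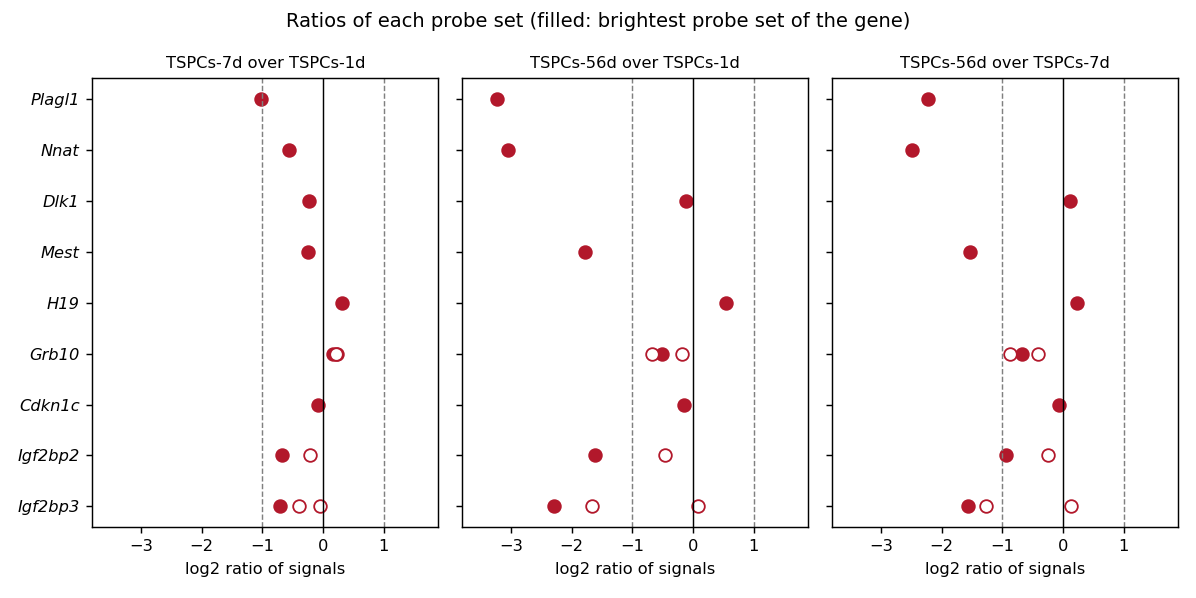
Log2 ratio of signals of each probe set (1 point each; filled for the brightest probe set of a gene) for TSPCs-7d over TSPCs-1d, TSPCs-56d over TSPCs-1d and TSPCs-56d over TSPCs-7d, with dashed lines at 2-fold. The probe sets of *Grb10* span 0.07 for TSPCs-7d over TSPCs-1d and 0.47 for TSPCs-56d over TSPCs-7d, while those of *Igf2bp3* for TSPCs-56d over TSPCs-1d lie between -2.28 and 0.08.

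Of the RNA-binding proteins, *Igf2bp2* had signals of 928 at 1 day, 580 at 7 days and 303 at 56 days in its brightest probe set. These signals were lower at each step, and the gene was 3.06-fold lower in TSPCs-56d relative to TSPCs-1d. Its other probe set had 222, 190 and 160, the same order but 1.38-fold. *Igf2bp3* had 519, 317 and 107 in its brightest probe set, a difference of 4.86-fold between TSPCs-56d and TSPCs-1d. A weaker probe set went the same way with 231, 175 and 72.5, 3.19-fold. The remaining one had 233, 225 and 246 and was level, although the platform's table gives both weaker probe sets the same source sequence. The log2 ratios of the 3 probe sets of *Igf2bp3* spanned 2.36 between TSPCs-56d and TSPCs-1d, and those of *Igf2bp2* spanned 1.15. Averaged over all probe sets of a gene, the log2 ratios were -1.29 for *Igf2bp3* and -1.04 for *Igf2bp2*, still past 2-fold. For TSPCs-56d over TSPCs-7d, *Igf2bp3* was 2.97-fold lower in its brightest probe set but within 2-fold when averaged (log2 ratio -0.90).

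Most of the decline lay between 7 and 56 days. Of the whole log2 difference across the 3 ages, the step between 7 and 56 days made up 86.5% for *Mest*, 81.7% for *Nnat*, 68.7% for *Plagl1*, 68.7% for the brightest probe set of *Igf2bp3* and 58.0% for that of *Igf2bp2*. The later step is also the longer one, so these shares are not rates. The 56-day signals of *Mest* and *Plagl1* were below the median of all signals. Raised to it, the steps lay closer together. *Mest* was then 1.18-fold lower at the first step and 1.37-fold at the second, and *Plagl1* 2.02-fold and 2.77-fold. Cell cycle genes had another profile. The proliferation marker *Mki67* had 324, 1079 and 344 at 1, 7 and 56 days, and 7 of 8 such genes (*Mki67*, *Mcm5*, *Mcm6*, *Ccna2*, *Ccnb1*, *Bub1b* and *Top2a*) exceeded 2-fold for TSPCs-7d over TSPCs-1d while 0 of 8 did for TSPCs-56d over TSPCs-1d. Among the members, *Grb10* alone was brightest in TSPCs-7d.

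**Figure D3:**
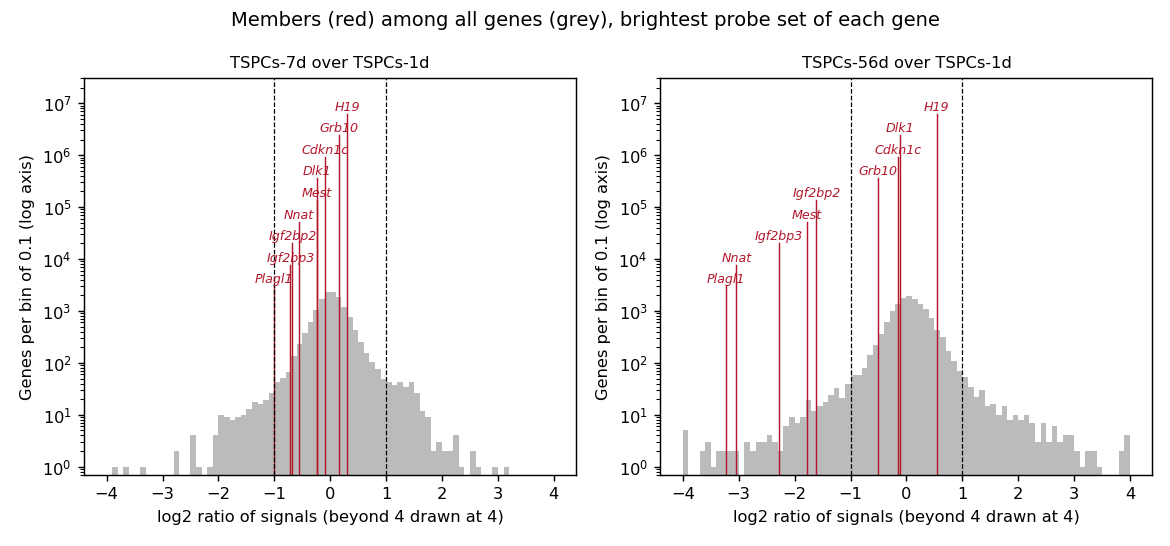
Number of genes (log axis, bins of 0.1) by log2 ratio, for TSPCs-7d over TSPCs-1d and for TSPCs-56d over TSPCs-1d (grey, brightest probe set of each of 14216 genes; ratios beyond 4 are drawn at 4), with the 9 measured members as labelled red lines and dashed lines at 2-fold. In TSPCs-56d over TSPCs-1d, 5 members lie below -1, between *Plagl1* (-3.24) and *Igf2bp2* (-1.61).

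Most other imprinted genes listed stayed within 2-fold. *Apeg3*, given below, was not in these lists. Of 14 further genes that are paternally expressed in mouse, 0 were more than 2-fold lower and 0 higher in each of the 3 comparisons, and the median log2 ratio of TSPCs-56d to TSPCs-1d was 0.05. Some were too dim for a decline to show. *Peg10* (29.5, 28.3 and 31.6 at 1, 7 and 56 days), *Usp29* (40.4, 36.7 and 42.8) and *Zdbf2* (28.4, 30.2 and 38.9) were under the 25th percentile of all signals (48.9) in each culture. *Ndn*, the gene of the growth suppressor necdin, had signals of 988, 980 and 1083 at 1, 7 and 56 days. *Sgce*, which encodes epsilon-sarcoglycan, had 1351, 1198 and 1281. *Igf2* had 188, 194 and 240 in its brightest probe set. Its other probe sets were below the median of all signals in each culture, and the brightest of these went the other way (96.7, 85.9 and 72.2). Of all genes, 1.77% were more than 2-fold lower and 2.00% higher in TSPCs-56d relative to TSPCs-1d. Of 19 further genes that are maternally expressed in at least some mouse tissues, 0 were lower and 2 were higher in that comparison (median log2 ratio -0.02). They were *Tfpi2*, an inhibitor of serine proteases (109, 160 and 673, 6.16-fold), and *Slc22a18*, a transporter gene next to *Cdkn1c* (126, 172 and 435, 3.46-fold). Here too some were dim. *Slc22a3* (9.68, 13.2 and 5.68), *Gatm* (42.3, 40.4 and 45.2 in its brightest probe set) and *Ppp1r9a* (23.4, 34.8 and 23.1) were under the 25th percentile in each culture. The array does not tell the parental copies of a gene apart. Whether the genes of either list are imprinted in these cultures was not tested. *Meg3*, a long non-coding RNA of the *Dlk1* domain, was level in its brightest probe set (370, 326 and 366) and 2.85-fold lower in TSPCs-56d relative to TSPCs-1d in the other (389, 231 and 137).

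For *Peg3*, the rat annotation places *Apeg3*, a long non-coding RNA, within the gene. The platform's table gives 4 probe sets the symbol *Apeg3*, and the array cannot show here whether these read that RNA or *Peg3* itself. The brightest had 710 at 1 day, 409 at 7 days and 138 at 56 days, 5.13-fold lower in TSPCs-56d relative to TSPCs-1d. The next had 557, 286 and 186, a log2 ratio of -1.59 for TSPCs-56d over TSPCs-1d. The faint ones had 123, 93.9 and 106, and 88.8, 48.5 and 44.9, so 2 of the 4 passed the cutoff. *Apeg3* was also the gene with the profile nearest to that of *Igf2bp3*. Likeness was measured by the Euclidean distance of centred log2 signals over the 3 arrays, among 9398 genes with a mean above the median of all signals, and was 0.07 for *Apeg3*. Nearest to *Plagl1* were *Mdk*, the growth factor midkine (0.06), *Etl4* (0.07), the carbonic anhydrase gene *Car3* (0.22), *Styxl2* (0.24) and *Rnf180* (0.25). With 3 arrays, a gene that is lower at each step by similar ratios is near by this measure, so it carries little detail.

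Among 12 measured genes of fetal growth and targets of the let-7 microRNAs, 2 were more than 2-fold lower and 0 higher in TSPCs-56d relative to TSPCs-1d, with a median log2 ratio of -0.43. *Mdk* had 670.1 at 1 day, 317 at 7 days and 67.3 at 56 days, 9.95-fold lower at 56 days, or 6.09-fold with the last signal raised to the median of all signals. *Igf2bp1*, the relative of *Igf2bp2* and *Igf2bp3*, had 117, 72.4 and 36.9 and was at least 2.39-fold lower, with the last signal raised to the 25th percentile of all signals (48.9). Raised to the median it was 1.06-fold, so 1 gene of the list then passed the cutoff. *Hmga1*, a chromatin protein of fetal cells, was 2.32-fold lower in TSPCs-56d relative to TSPCs-7d (613, 766 and 330). *Plag1*, the zinc finger relative of *Plagl1*, was 1.73-fold lower in TSPCs-56d relative to TSPCs-1d in its brightest probe set and 2.12-fold in the other. *Ezh2*, a histone methyltransferase, was 2.27-fold higher in its brightest probe set in TSPCs-7d relative to TSPCs-1d (278, 631 and 259). Its other probe sets were 2.28-fold and 1.31-fold higher, and averaged over all of them *Ezh2* was within 2-fold.

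**Figure D4:**
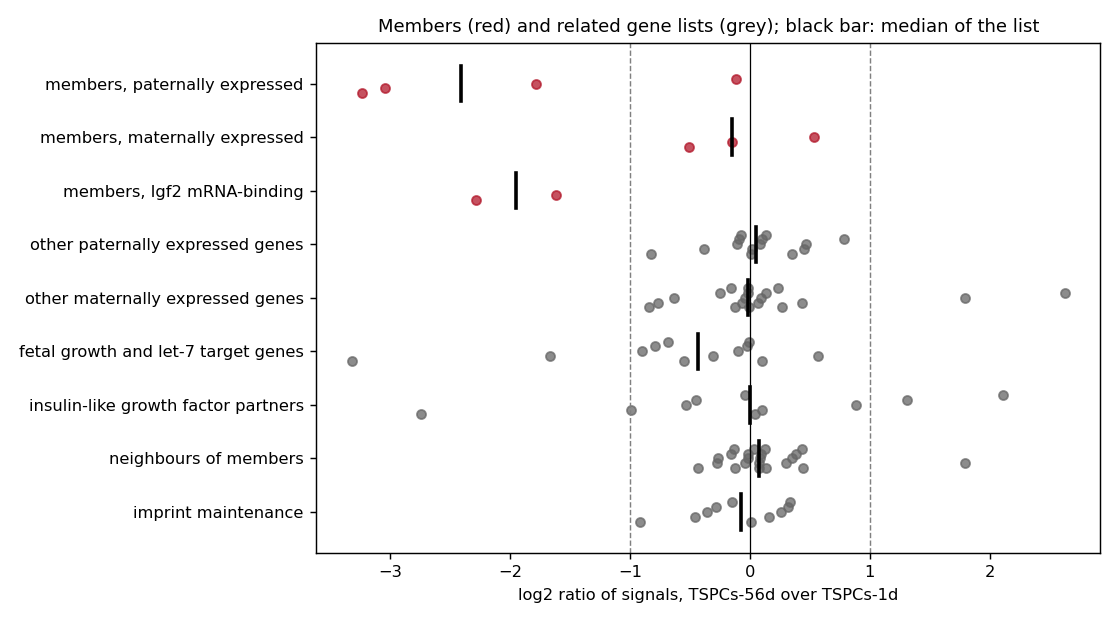
Ratio on the log2 scale, TSPCs-56d over TSPCs-1d, for each gene (1 point) of the members (red) and of related gene lists (grey), with a black bar at the median of each list and dashed lines at 2-fold. The medians are -2.41 for the 4 paternally expressed members, -0.15 for the 3 maternally expressed ones, -1.95 for *Igf2bp2* and *Igf2bp3*, and between -0.43 and 0.08 for the grey lists.

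Around the insulin-like growth factors, *Igfbp2*, which encodes a binding protein, was 6.67-fold lower in TSPCs-56d relative to TSPCs-1d (1854, 528 and 278 at 1, 7 and 56 days), and *Igfbp3*, another, was 4.32-fold higher (505, 644 and 2180). Of 10 such genes measured, 2 were higher and 1 lower in that comparison, with a median log2 ratio near 0. The other higher one was *Igfbp6*, also a binding protein (564, 1260 and 1397, 2.47-fold). *Igfbp5*, of the same family (207, 84.5 and 104 in its brightest probe set), stood at 1.99-fold lower and passed the cutoff under both other scalings. Its later signals were below the median of all signals, and raised to it the difference was 1.88-fold. Its other probe sets ran from 2.90-fold lower to 1.21-fold higher. For TSPCs-7d over TSPCs-1d, *Igfbp5* was 2.45-fold lower and *Igf1*, the growth factor gene, 2.13-fold higher (153, 328 and 284). Both were within 2-fold when the probe sets of a gene were averaged. With signals under the median of all signals raised to it, *Igfbp5* was 1.88-fold lower there. Of 10 genes that set, keep or remove DNA methylation or bind imprint control regions, 0 passed the cutoff between TSPCs-56d and TSPCs-1d. With each array divided by its median, 1 did, the DNA methyltransferase gene *Dnmt3a* (401, 259 and 213, lower in TSPCs-56d). *Zfp57*, a zinc finger protein that binds methylated imprint control regions, had 736, 730 and 662. *Uhrf1* (166, 579 and 209) and *Dnmt1* (380, 771 and 423), which copy methylation at replication, were 3.49-fold and 2.03-fold higher in TSPCs-7d relative to TSPCs-1d. With 32 added to each signal, *Dnmt1* was within 2-fold. Of 22 measured genes listed as neighbours of the members on their chromosomes, 0 were lower and 1, *Slc22a18*, was higher in TSPCs-56d relative to TSPCs-1d (median 0.08). The 22 did not include every gene annotated beside a member. *Stx11*, *Sf3b5* and *Zc2hc1b*, annotated around *Plagl1*, were not among them, while *Ltv1* and *Etv5*, which are not the nearest annotated genes, were. *Apeg3* was not among these neighbours.

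Of 7 measured tendon markers, 6, 7 and 7 were above the median of all signals at 1, 7 and 56 days. The tendon transcription factor *Scx* had 2255, 2578 and 2569 at 1, 7 and 56 days, the collagen gene *Col1a1* 14491, 14736 and 14286, and the 7 summed to 41668, 45395 and 47714. Most of that sum came from *Col1a1* and *Col1a2* (18751, 19315 and 18760), which were level. Most of its rise came from *Tnc* (5280, 7303 and 11185). The tendon matrix gene *Thbs4* was dim at 1 day and higher in the older cultures (76.5, 340 and 348). Defining markers of muscle (*Myod1*, 23.6 to 32.5), blood vessels (*Pecam1*, 18.0 to 23.3) and leukocytes (*Ptprc*, 20.8 to 30.6) were under the 25th percentile in each culture. Other markers of these lists were brighter: at 1, 7 and 56 days 1, 2 and 2 of 7 muscle markers, 0, 0 and 0 of 5 endothelial ones and 3, 2 and 3 of 6 leukocyte ones were above the median, among them *Aif1* of macrophages (209, 188 and 267) and *Tnnt3* of muscle at 7 and 56 days (112 and 136). None of these lists had a marker listed at 0. The summed signals at 1, 7 and 56 days were 489.8, 481 and 533 for 7 of 9 muscle markers, 239, 238 and 254 for 5 of 6 endothelial ones and 626, 587 and 708 for 6 of 6 of leukocytes. Those of fat cells were 997, 539 and 1203 (6 of 6), of Schwann cells and neurons 2456, 2127 and 3077 (4 of 6), and of smooth muscle and pericytes 17714, 14049 and 21310 (6 of 6). The fat cell sum rested on *Lpl*, the lipoprotein lipase gene (542.5, 153 and 834). Without it the other 5 summed to 454, 386 and 369, lowest at 56 days, and *Pparg* (120, 117 and 60.3) and *Fabp4* (70.6, 27.6 and 17.0) were lower at each step. Reference genes stayed within 2-fold (0 of 5 past the cutoff, median log2 ratio of TSPCs-56d to TSPCs-1d 0.23). The sum of 4 of 6 cartilage markers was lower at 56 days (10939.5, 12125 and 4774). That sum rested largely on *Acan*, the aggrecan gene (8588, 8224 and 2874). Without *Acan* the other 3 summed to 2352, 3901 and 1900, and *Col2a1* was dim (66.9, 61.6 and 72.3). The tendon marker *Tnmd* (543, 351 and 158) also stood lower at each step. The part of the cartilage, fat cell and tendon markers in the decline of the members was not tested.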

How the data were processed

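RNA of cultured TSPCs from rats of 3 ages was hybridized to Affymetrix Rat Genome 230 2.0 arrays, 1 per age. The deposited values are a linear signal intensity for each of 31042 probe sets, which the authors had normalized and summarized. The methods name MAS5 and RMA, the processing notes MAS5 alone, and which step gave these values was not given in the sources used here. A scale with a lowest value of 1 and medians of 107 to 114 was read as linear. Detection calls and control probes are not analysed here.

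Signals were used as deposited. A fold change was the ratio of 2 signals, with a cutoff of 2. The platform's table named a single gene for 20826 probe sets, several for 436 and none for 9780. The brightest probe set stood for each of 14216 genes. A signal under the 25th percentile (48.9) was raised to it for "at least" folds. Members and lists were chosen with earlier results of these data known. All members were named, with genes of other lists past the cutoff whose brighter signal was above the median of all signals (at most 6 per list and comparison) and, for members above that median that ranged over 2-fold, the 5 nearest profiles. *Dnmt3a*, *Igf2*, *Ndn*, *Sgce*, *Peg10*, *Usp29*, *Zdbf2*, *Slc22a3*, *Gatm*, *Ppp1r9a*, *Meg3*, *Blcap*, *Copg2*, *Zfp57*, *Plag1*, the markers and the weaker *Apeg3* probe sets were named after their values were seen. The calculation was tested on simulated data. The number of arrays limits the precision. RefSeq GRCr8 tables gave sequences and gene positions. The list of neighbours did not follow these positions throughout. Python 3.11.15, numpy 2.4.6, pandas 2.3.3 and matplotlib 3.10.9 were used. Alternatives covered scaling, low signals, probe sets per gene and the cutoff.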

Additional observations from a re-analysis of the deposited data

How the results depend on the processing

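The counts of members past the cutoff were recomputed with each array divided by its median, with quantile normalization, with a floor at the 25th percentile, with a pseudocount of 32, with only probe sets above the median of all signals, with all probe sets of a gene averaged, with cutoffs of 1.5 and 3, and, chosen after seeing the data, with a floor at the median. Of 54 recomputed counts, 50 were within 1.5 times the reported one. Many of them had little room to move, so this share is a weak guide. The counts of members higher were 0 in each setting. All 14 member probe sets had every signal at or above the 25th percentile, so the floor there could not change a count. The setting with only bright probe sets left out *Dlk1* and *Cdkn1c*, which had not been counted. The count lower in TSPCs-7d relative to TSPCs-1d was 0 with the pseudocount of 32 and 0 at the cutoff of 3, since the only member counted, *Plagl1*, stood at 2.02-fold, and it was 3 at the cutoff of 1.5. At the cutoff of 3, 2 members were lower in TSPCs-56d relative to TSPCs-7d. The count lower in TSPCs-56d relative to TSPCs-1d was 5 in each setting other than the floor at the median, where it was 4 without *Mest*. For TSPCs-56d over TSPCs-7d, *Igf2bp3* was lost with probe sets averaged and *Mest* with the floor at the median (3 members each), *Igf2bp2* was gained with each array divided by its median (5), and 6 passed at the cutoff of 1.5. With only bright probe sets, the median log2 ratio of the members in that comparison was -1.54, against -0.94 as reported. Of 432 recomputed counts of the other lists, 46 moved by more than 1.5 times. Of 183 recomputed log2 ratios of members, 7 moved by more than the gap that 10% of pairs of probe sets exceed, and 0 ratios past 2-fold changed sign. No paired analysis was possible because each age has 1 array. Signals near or under the median of all signals, as in *Dlk1*, *Cdkn1c* and the 56-day signals of *Plagl1* and *Mest*, limit what their ratios show.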

Other observations

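Nearest in profile to *Igf2bp2* was the protocadherin gene *Pcdh18* (signals of 1077, 698 and 347 at 1, 7 and 56 days, distance 0.05), followed by *Ncald*, the tendon gene *Tnmd*, *Mmd* and *Ttc9*. Nearest to *Mest* was the cadherin gene *Cdh22* (801, 694 and 241, distance 0.03), followed by *Fgf13*, a member of the fibroblast growth factor family (214, 172 and 60.6, distance 0.06), *C1qtnf3*, *Lnx1* and *Klhdc8a*. After *Apeg3*, *Igf2bp3* had *Lrig1*, a membrane protein that restrains growth factor receptors (505, 307 and 114, distance 0.11), *Tmeff1*, *Fbn2*, the gene of the fetal microfibril protein fibrillin-2 (381, 216 and 89.5), and *Lpar3*. *Nnat* shared *Rnf180*, *Etl4* and *Mdk* with *Plagl1* among the 5 nearest genes of each, and its others were *Gas2* and *Dach1*. These are descriptions of 3 arrays, with no test.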
